A study of Danio rerio with 20 samples.

Results

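Substitution-only alleles are the reads of a CRISPR amplicon that carry base changes near the guide site but no insertion or deletion. They were taken as every row whose name starts with SNV: in the 6 tables of read counts per allele, 1 table for each guide. This gave 4701 of 5533 rows, against 820 rows of insertions or deletions (indels). The acaa2-sg1 table held 1695 of them and acaa2-sg2 848, the tables of tlr4ba held 382 (sg1) and 797 (sg2), and those of tlr4bb 441 (sg1) and 538 (sg2). In reads they were a small class, 147244 of the 3672164 reads without an indel in all 20 samples. Each allele is written as the positions and the read bases that differ, so that SNV:-6A,-2A holds an A at position -6 and an A at position -2.

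The samples were amplicons of genomic DNA from zebrafish melanomas, induced by TEAZ, in which DNA is electroporated into adult skin, and sorted for tdTomato and the nuclear dye Hoechst 33342, from fish picked at random. The acaa2 knockout fish (fish 1 to 4) were read with the guides acaa2-sg1 and acaa2-sg2. The TLR4 knockout fish, called tlr4 fish here, were read with tlr4ba-sg2 and tlr4bb-sg2 in fish 1 to 4 and with tlr4ba-sg1 and tlr4bb-sg1 in fish 3 and 4. The age and strain of the fish, the oncogene of the tumours and the nuclease are not given in the sources used here and no unedited tissue was analysed. Each sample is 1 guide site in the tumour of 1 fish. Samples held 28353 to 729540 reads, of which 20053 to 607130 had no indel, and all shares below rest on these.

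Cas9 cuts both DNA strands at a site given by its guide RNA, and the cell rejoins the ends. End joining mostly leaves small insertions or deletions, and base changes without a change in length are also read at such sites. Inherited variants, variants of the tumour and misread bases also appear as substitutions in an amplicon, and with no unedited tissue these cannot be told apart here. The gene acaa2 encodes a thiolase of mitochondrial fatty acid oxidation, and tlr4ba and tlr4bb belong to the zebrafish relatives of Toll-like receptor 4, a receptor of innate immunity.

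The windows in which substitutions were listed are shown first, because they give the base that each allele replaces. Substitutions lay at 14 positions per guide, numbered -8 to -1 and 1 to 6. Position 0 stands here for the junction of positions -1 and 1. At all 84 positions of the 6 guides exactly 3 of the 4 bases were ever read as a substitution, so the base that was never listed is, by elimination, the base of the sequence the reads were compared with. The 6 windows read off in this way follow, from position -8 to 6 in the direction of increasing position, with positions 5 and 6 in capitals. They were derived from the allele names and not from a genome, so no coordinates, exon or strand are given.

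acaa2-sg1: acgggcgatgtaGG
acaa2-sg2: tacgtgccgaacGG
tlr4ba-sg1: ttgtacgcattgGA
tlr4ba-sg2: ttactatgttttGG
tlr4bb-sg1: gtcctgtaacttGG
tlr4bb-sg2: aaaagatctcatGG

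The commonly used Cas9 of Streptococcus pyogenes needs an NGG motif just 3′ of its target and cuts 3 bases before that motif. With a cut at position 0, the G bases of the motif fall at positions 5 and 6. Both capitals were G in 5 of the 6 windows, while tlr4ba-sg1 read GA there and had its G pair at positions 4 and 5. A base change is named below by the base of the window, the position and the read base, with positions as in the windows.

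The share of substitution-only reads among reads without an indel was 1.89% to 15.9% in the 8 acaa2 samples and 1.22% to 2.28% in the 12 tlr4 samples. At acaa2-sg1 the shares of fish 1 to 4 were 15.0%, 15.9%, 10.8% and 11.4%. At acaa2-sg2 it was 12.4% and 12.6% in fish 1 and 2, and 1.89% and 1.90% in fish 3 and 4. So all 4 acaa2-sg1 samples were high, and at acaa2-sg2 fish 1 and 2 lay far above fish 3 and 4. At tlr4ba-sg1 the share was 1.26% in fish 3 and 1.46% in fish 4, and at tlr4ba-sg2 it was 2.02%, 1.40%, 1.22% and 1.26% in fish 1 to 4. At tlr4bb-sg1 it was 1.65% in fish 3 and 2.28% in fish 4, and at tlr4bb-sg2 it was 1.62%, 1.62%, 1.40% and 1.84% in fish 1 to 4. The tlr4 sites thus all lay within 1.22% to 2.28%, although the values of tlr4ba-sg1 and tlr4bb-sg1 did not overlap. The 95% Wilson intervals, which cover counting error only, were widest in acaa2-sg1 fish 2, from 15.4% to 16.4%.

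Fish 1 and 2 of each acaa2 guide had similar shares although their indel shares were far apart. In acaa2-sg1, indels took 0.078% of the classified reads of fish 1 and 82.4% of fish 2, where 15.0% and 15.9% of the remaining reads were substituted. In acaa2-sg2, indels took 1.36% of fish 1 and 88.3% of fish 2, with 12.4% and 12.6% of the remaining reads substituted. As a share of all classified reads, substitution-only reads were 12.3% and 1.47% in these 2 acaa2-sg2 samples. In tlr4bb-sg2, indels took 72.5%, 79.6%, 7.02% and 17.8% of fish 1 to 4, and the substitution share stayed within 1.40% to 1.84%. Other samples differed more. In tlr4ba-sg2, indels took 69.2%, 5.39%, 9.01% and 0.736% of fish 1 to 4, with substitution shares of 2.02%, 1.40%, 1.22% and 1.26%. In acaa2-sg1 fish 3 and 4, indels took 39.6% and 42.7%, with substitution shares of 10.8% and 11.4%. A relation between indel and substitution shares was not tested.

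Averaged over the guides of each fish, substitutions took 10.2% ± 4.32 of the reads without an indel in acaa2 fish and 1.61% ± 0.196 in tlr4 fish (SD, n = 4 each). The acaa2 fish were at 13.7%, 14.2%, 6.36% and 6.63%, and the tlr4 fish at 1.82%, 1.51%, 1.38% and 1.71%, so the groups did not overlap. The difference of 8.63 points had an exact two-sided permutation p of 0.029, the smallest that 4 against 4 fish allow, and a Benjamini-Hochberg value of 0.343 over 12 comparisons, which is above the threshold of 0.05. Without each guide's most abundant allele it was 4.01 points, and over all classified reads 4.76 points. The knockouts were read at different amplicons, so knockout and sequence cannot be told apart in this difference.

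No comparison of 2 guides reached a p under 0.05 for the substitution share, and the 3 that involve a tlr4 guide read in 2 fish could not, their smallest possible p being 0.067 or 0.333. The acaa2-sg1 mean was 13.3% ± 2.54 and the acaa2-sg2 mean 7.20% ± 6.13 (SD, n = 4 each), a difference of 6.06 points that was positive in 4 of 4 fish (exact permutation p = 0.171, Benjamini-Hochberg 0.640). Within fish 1 and 2 it was 2.91 points and within fish 3 and 4 it was 9.21 points. It was 0.571 points without each guide's most abundant allele (exact permutation p = 0.6) and 3.93 points over all classified reads. The tlr4ba-sg1 mean was 1.36% ± 0.142 (SD, n = 2) and the tlr4ba-sg2 mean 1.48% ± 0.369 (SD, n = 4), with -0.118 points between them (exact permutation p = 0.867), which was 0.115 points within fish 3 and 4, the only fish read with both guides. The tlr4bb-sg1 mean was 1.97% ± 0.446 (SD, n = 2) and the tlr4bb-sg2 mean 1.62% ± 0.180 (SD, n = 4), with 0.343 points between them (exact permutation p = 0.133). The second guides, tlr4ba-sg2 and tlr4bb-sg2, were -0.146 points apart (exact permutation p = 0.486), with 0.090 points within fish 1 and 2 and -0.383 points within fish 3 and 4. The first guides, tlr4ba-sg1 and tlr4bb-sg1, were -0.608 points apart (exact permutation p = 0.333, with no smaller value possible for 2 against 2).

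A few alleles carried the high acaa2 shares of fish 1 and 2. In all samples together only 5 alleles reached 1% of the reads without an indel in any fish, all of them at acaa2 sites, and 47 reached 0.1%. These 5 were SNV:3G and SNV:-1G at acaa2-sg1 and SNV:-2A, SNV:-6A and SNV:-6A,-2A at acaa2-sg2. All 42 possible single substitutions of a window were seen at each guide, and in 14 of the 20 samples every one of them had reads. The median single substitution of a sample was rare, at 0.0093% to 0.055% of the reads without an indel.

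At acaa2-sg1, 1 allele led fish 1 and 2 and a broader set led fish 3 and 4. SNV:3G, the transversion T3G, took 14.05% of fish 1 (28904 reads; 95% Wilson interval 13.9 to 14.2), 14.3% of fish 2 (13.8 to 14.7), 1.69% of fish 3 (1.62 to 1.76) and 1.71% of fish 4 (1.65 to 1.78). The intervals of fish 1 and 2 overlapped, as did those of fish 3 and 4, and the pairs lay far apart. SNV:3G made up 93.8% and 89.8% of the substitution reads of fish 1 and 2, whose share without it was 1.08% and 1.89%. SNV:-1G, the transition A-1G, ran the other way, with 0.012% and 0.015% in fish 1 and 2 (24 and 3 reads) and 2.16% and 2.19% in fish 3 and 4. SNV:-3G took 0.011%, 0.015%, 0.894% and 0.883% of fish 1 to 4. SNV:-1C took 0.025% of fish 1 and of fish 2, and 0.449% and 0.445% of fish 3 and 4. SNV:-7A took 0.0068%, 0.025%, 0.418% and 0.452% of fish 1 to 4. For these 4 alleles the order was the reverse of that of SNV:3G, with fish 3 and 4 high and nearly equal.

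Position 3 was therefore the most substituted of acaa2-sg1 in fish 1 and 2, at 14.2% and 14.6% of the reads without an indel, while the median position stood at 0.076% and 0.147%. In fish 3 and 4 position -1 led with 4.21% and 4.26%, followed by position 3 with 3.55% and 3.61%, and the median position stood at 0.513% and 0.531%.

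At acaa2-sg2 the high share of fish 1 and 2 came from C-to-A changes at a pair of positions. SNV:-2A (C-2A) took 4.96% of fish 1 (interval 4.88 to 5.04) and 4.77% of fish 2 (4.55 to 5.001), against 0.022% of fish 3 (17 reads) and 0.037% of fish 4 (118 reads). SNV:-6A (C-6A) took 4.04% of fish 1 and 4.17% of fish 2, against 0.020% of fish 3 and 0.021% of fish 4. Reads with both changes, SNV:-6A,-2A, took 1.82% of fish 1 (5066 reads), 1.76% of fish 2 (606 reads), 0.0013% of fish 3 (1 read) and 0.00063% of fish 4 (2 reads). Positions -2 and -6 were thus each substituted in 6.20% to 7.31% of the reads of fish 1 and 2, and in 0.077% to 0.151% of fish 3 and 4. Fish 3 was led by SNV:-7G (0.162%) and fish 4 by SNV:-7T (0.164%), each under 10% of the substitution reads. SNV:-7T took 0.068% and 0.111% of fish 1 and 2, and SNV:-7G took 0.038% and 0.029%. SNV:-2T, the transition at the same base as SNV:-2A, stayed between 0.055% and 0.128% in all 4 fish.

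At tlr4ba-sg1 all substitutions were rare, and the leading allele differed between the fish. SNV:-4T took 0.101% of fish 3 and 0.137% of fish 4, and SNV:4T took 0.096% and 0.140%. SNV:-2T (G-2T) was lower in fish 3, at 0.039% (interval 0.032 to 0.048), than in fish 4, at 0.206% (0.180 to 0.236), where it led. SNV:-3T took 0.051% and 0.129% of fish 3 and 4, and SNV:-2A took 0.071% and 0.043%. The most abundant allele held 8.06% and 14.1% of the substitution reads of fish 3 and 4, so neither sample was led by 1 allele as acaa2-sg1 fish 1 was.

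At tlr4ba-sg2 the last position of the window set fish 1 and 2 apart. SNV:6T (G6T) took 0.787% of fish 1 (170 reads; interval 0.677 to 0.913) and 0.839% of fish 2 (224 reads; 0.736 to 0.955), against 0.041% of fish 3 and 0.067% of fish 4. SNV:5T (G5T), its neighbour, took 0.0093% and 0.0075% of fish 1 and 2 (2 reads each), and 0.088% and 0.228% of fish 3 and 4, where it led. Fish 1 alone was high for SNV:1G, with 0.342% against 0.026%, 0.047% and 0.035% in fish 2 to 4. It was also high for SNV:-1T, with 0.199% against 0.011%, 0.037% and 0.031% in fish 2 to 4. SNV:-6T took 0.051%, 0.034%, 0.085% and 0.064% of fish 1 to 4.

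At tlr4bb-sg1, where indels took 0.044% and 0.045% of the classified reads, substitutions were far more frequent than indels among these reads. Reads named Other, which are not classified, numbered 8861 in fish 3 and 4764 in fish 4, against 3853 and 4587 substitution reads. What they hold is not given. SNV:1G (the transition A1G) took 0.428% of fish 3 (interval 0.402 to 0.455) and 0.260% of fish 4 (0.239 to 0.283). SNV:-5A took 0.107% of fish 3 and 0.385% of fish 4, and SNV:-6A took 0.051% and 0.372%. These neighbouring C-to-A changes, C-5A and C-6A, were both higher in fish 4. SNV:-8T took 0.101% and 0.175%, and SNV:-4C took 0.0997% and 0.119%, of fish 3 and 4.

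At tlr4bb-sg2 the alleles next to position 0 led fish 1 and 2. SNV:1G (T1G) took 0.428% of fish 1 and 0.407% of fish 2, against 0.025% of fish 3 and 0.015% of fish 4. SNV:2A (C2A) took 0.377%, 0.382%, 0.051% and 0.246% of fish 1 to 4. Fish 4, with an interval of 0.227 to 0.266, lay between fish 3 and the first 2 fish, whose intervals were 0.312 to 0.454 and 0.306 to 0.477. SNV:6T took 0.045%, 0.020%, 0.092% and 0.431%, with fish 4 highest. SNV:-5G took 0.121%, 0.137%, 0.228% and 0.250%, and SNV:5T took 0.021%, 0.0098%, 0.104% and 0.129%.

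Across guides, samples of fish 1 resembled those of fish 2, and samples of fish 3 those of fish 4. The likeness of 2 samples was taken as the percent of single-substitution reads they shared, summing over the 42 single alleles of the guide the lower of the 2 shares. It was 68.1% to 96.8% over the 4 guides for fish 1 with fish 2 and 67.3% to 94.7% over the 6 guides for fish 3 with fish 4. Over the 16 pairs that crossed these it was 12.7% to 49.3%. Spearman's rho over the 42 alleles was 0.64 to 0.94 within and 0.074 to 0.54 across, as a description, since the alleles of a sample share its reads. Which samples were amplified or sequenced together is not given in the sources used here, so these pairs of fish cannot be told apart from a preparation in common. The pattern was seen at all 4 guides read in 4 fish, in both knockouts. In tlr4bb-sg2 the substitution and unmodified counts of fish 1 and 2 differed with a chi-square of 1.35 per degree of freedom over 17 alleles, and the other 25 pairs of samples of a guide gave 1.71 to 595. The closest pair was kept as 2 samples, since indels took 72.5% and 79.6% of their classified reads.

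The kinds of change were taken from the windows. Transitions make up 33.3% of the possible single substitutions, and they made up less than that of the single-substitution reads in 13 of 20 samples. In acaa2-sg1 they took 2.56% and 3.88% of the single-substitution reads of fish 1 and 2, and 35.7% and 35.1% of fish 3 and 4. In acaa2-sg2 they took 4.67% and 5.48% of fish 1 and 2, and 45.0% and 37.4% of fish 3 and 4. The highest was 52.3% in tlr4bb-sg1 fish 3, where SNV:1G is itself a transition. T-to-G changes made up 95.3% of the single-substitution reads of acaa2-sg1 fish 1, C-to-A changes 89.6% of acaa2-sg2 fish 1, and G-to-T changes 64.5% of tlr4ba-sg2 fish 2. Each of these kinds was led by the alleles named for that sample.

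Substitutions were not gathered around position 0 in general. The 6 positions within 3 bases of it are 42.9% of the window, and they held more than that share of the single-substitution reads in 12 of 20 samples. For acaa2-sg1 their share was 97.2%, 95.8%, 82.1% and 78.9% over fish 1 to 4. For tlr4bb-sg2 it was 70.1% and 72.2% in the first 2 fish. The lowest share was 18.3%, in tlr4ba-sg2 fish 2, where SNV:6T led.

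Most allele names held several substitutions, but most reads held 1. Of the 4701 alleles, 252 had 1 substitution, 1921 had 2, 1535 had 3 and 993 had 4 or more. The largest number was 11, in an allele with 1 read in tlr4ba-sg1 fish 3. Of the 4449 alleles with several substitutions, 63.8% had 1 read in the whole series. By reads, several substitutions were found in 22251 of the 147244 substitution reads.

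The percent of substitution reads with more than 1 substitution differed most between fish at acaa2-sg1. It was 1.32% and 2.83% in fish 1 and 2 and 28.5% and 28.1% in fish 3 and 4 of acaa2-sg1. In fish 1 and 2 the single allele SNV:3G held 93.8% and 89.8% of the substitution reads that form the denominator. The size of the contrast therefore depends on that allele. As a percent of all reads without an indel, reads with several substitutions were 0.198%, 0.449%, 3.08% and 3.19% in fish 1 to 4. Fish 3 and 4 of acaa2-sg1 were thus also higher on this measure. At acaa2-sg2 the percent with more than 1 substitution was 18.5% and 19.1% in fish 1 and 2, and 12.04% and 15.9% in fish 3 and 4. At tlr4ba-sg1 it was 15.7% and 12.9% in fish 3 and 4, and at tlr4ba-sg2 4.59%, 5.08%, 14.9% and 13.2% in fish 1 to 4. At tlr4bb-sg1 it was 17.4% and 9.94% in fish 3 and 4, and at tlr4bb-sg2 9.38%, 9.39%, 15.0% and 9.27% in fish 1 to 4. Fish 1 and 2 of tlr4ba-sg2 and tlr4bb-sg2 had 330 to 469 substitution reads each, and the interval of 5.08% in tlr4ba-sg2 fish 2 ran from 3.28% to 7.80%.

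None of the 6 comparisons of this percent had an unadjusted exact permutation p under 0.05, which only 3 of them could reach, since those with tlr4ba-sg1 or tlr4bb-sg1 allow no p below 0.067 or 0.333. The acaa2-sg1 mean was 15.2% ± 15.1 and the acaa2-sg2 mean 16.4% ± 3.22 (SD, n = 4 each), with -1.22 points between them (exact permutation p = 0.857), with -16.7 points within fish 1 and 2 and 14.3 points within fish 3 and 4. The tlr4ba-sg1 mean was 14.3% ± 1.94 (SD, n = 2) and the tlr4ba-sg2 mean 9.45% ± 5.38 (SD, n = 4), with 4.83 points between them (exact permutation p = 0.267) that was 0.216 points within fish 3 and 4. The tlr4bb-sg1 mean was 13.7% ± 5.27 (SD, n = 2) and the tlr4bb-sg2 mean 10.8% ± 2.82 (SD, n = 4), 2.91 points apart (exact permutation p = 0.533). The second guides of tlr4ba and tlr4bb differed by -1.31 points (exact permutation p = 0.600), and the first guides by 0.620 points (exact permutation p = 1). By fish, the means were 15.8% ± 6.22 in acaa2 fish and 10.3% ± 4.12 in tlr4 fish (SD, n = 4 each), 5.46 points apart (exact permutation p = 0.229, Benjamini-Hochberg 0.640).

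Substitutions occurred together more often than the product of their single shares in every sample. For each sample, the reads with exactly 2 substitutions were set against the number expected, summed over all pairs of single substitutions at different positions, seen or not. If substitutions were independent, this ratio would be 1.01 to 1.19 rather than 1, since single shares leave out the reads with several. The observed ratio was 1.58 to 29.8, above 1 in 20 of 20 samples, and its counting interval lay above the value under independence in all 20. Averaged over the guides of each fish, the log2 of observed over expected was 3.21 ± 0.93 (SD, n = 8 fish), a mean fold of 9.24, positive in 8 of 8 fish (exact two-sided permutation of signs, p = 0.0078, with no smaller value possible for 8 fish). This p takes the 8 fish as independent units. That is not known, since fish 1 and 2, and fish 3 and 4, may share a preparation. It was 1.78, 2.01, 3.48 and 3.63 in acaa2 fish 1 to 4 and 3.03, 3.43, 4.63 and 3.66 in tlr4 fish 1 to 4. By these means fish 1 and 2 were lower than fish 3 and 4 in both knockouts. In acaa2-sg1 fish 1 and 2, however, SNV:3G held 93.8% and 89.8% of the substitution reads. Most expected double reads there are pairs with SNV:3G, so these ratios say little of other pairs. In the tlr4 fish, the means of fish 3 and 4 include tlr4ba-sg1 and tlr4bb-sg1, which were not read in fish 1 and 2. The 0.5 reads added before log2 also lower the tlr4 values of fish 1 and 2 most. Only 1.34 to 3.01 double reads were expected in each of those samples. At tlr4bb-sg2 the ratios of fish 1 and 2, 15.9 and 15.5, lay above the 9.49 of fish 4.

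By sample, acaa2-sg1 had 326 observed reads against 206 expected in fish 1, 71 against 32.9 in fish 2, 2810 against 314 in fish 3 and 3081 against 375 in fish 4. The ratios of fish 1 and 2 were 1.58 (95% exact Poisson interval 1.42 to 1.77) and 2.16 (1.69 to 2.72), and those of fish 3 and 4 were 8.94 and 8.22. At acaa2-sg2 it was 7.47, 7.57, 14.6 and 19.0 in fish 1 to 4, and at tlr4ba-sg1 24.4 and 17.5 in fish 3 and 4. At tlr4ba-sg2 it was 5.65, 12.7, 26.9 and 20.6 in fish 1 to 4, the first 2 values resting on 17 observed reads each. At tlr4bb-sg1 it was 29.8 in fish 3 and 8.33 in fish 4, and at tlr4bb-sg2 15.9, 15.5, 21.6 and 9.49 in fish 1 to 4. The lowest ratios were those of the samples in which SNV:3G held most of the substitution reads.

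The excess was not limited to neighbouring bases. The ratio was above 1 in all 20 samples for pairs at neighbouring positions, for pairs 2 to 4 positions apart and for pairs 5 or more apart. No intervals were computed for these classes, and some ratios were close to the value under independence or rested on few reads. In acaa2-sg1 fish 1, pairs 2 to 4 apart had 97 reads against 74.7 expected, a ratio of 1.30, with 1.18 under independence. The neighbouring class of tlr4ba-sg2 fish 1 held 1 read against 0.311 expected. Neighbouring pairs had the highest ratio of these 3 classes in 6 of 20 samples. They held 65.0% and 74.1% of the observed double reads of tlr4bb-sg2 fish 1 and 2, and 2.19% to 21.1% in the other 18 samples. Reads with exactly 3 substitutions also exceeded the product of 3 single shares in all 20 samples, with 956 reads against 4.90 expected in acaa2-sg1 fish 3 and 213 reads against 0.092 expected in tlr4ba-sg2 fish 4. In most samples fewer than 1 such read was expected, so 1 read was enough to exceed it. Fish 2 of tlr4ba-sg2 and of tlr4bb-sg2 had 1 read each, against 0.0026 and 0.0053 expected.

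The pairs with the most double reads at each guide are given as a description, since they were picked for those reads. At acaa2-sg2, C-6A and C-2A were found together in 5066 reads against 557 expected in fish 1 and in 606 against 68.3 in fish 2, ratios of 9.09 (8.84 to 9.34) and 8.88 (8.18 to 9.61). Of all reads with SNV:-6A in any allele, 30.0% in fish 1 and 28.4% in fish 2 also had A at -2, while 6.87% and 6.65% of all reads without an indel did. Each change was thus found more often without the other than with it. SNV:-6A,-2G was found in 324 reads of fish 1 against 16.5 expected and in 51 of fish 2 against 1.96, and in 0 reads of fish 3 and 4, which allows up to 0.0038% and 0.00095%.

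At acaa2-sg1, SNV:-3G,3G had 307 reads against 20.2 expected in fish 3 and 297 against 21.3 in fish 4, but 5 against 3.23 in fish 1 and 1 against 0.428 in fish 2. In fish 3 and 4, 25.5% and 23.3% of the reads with G at -3 also had G at 3, which 2.92% and 2.99% of all reads without an indel had. SNV:-1G,3G had 219 reads against 48.9 expected in fish 3 and 253 against 52.9 in fish 4, 1 against 3.37 in fish 1 and 3 against 0.428 in fish 2. Joint occurrence with SNV:3G was thus seen where that allele was at 1.69% and 1.71%, and the intervals of both pairs included 1 in fish 1, where it was at 14.05%. In fish 2 the interval of SNV:-1G,3G, from its 3 reads, ran from 1.45 to 20.5, above 1, and that of SNV:-3G,3G included 1. Of the 51 and 65 pairs with at least 1 read expected in fish 3 and 4 of acaa2-sg1, 48 and 60 exceeded the expectation, with median ratios of 8.11 and 6.27. In fish 1 and 2 of acaa2-sg1 it was 26 of 35 pairs (median ratio 1.34) and 8 of 12 (1.36), and in fish 1 and 2 of acaa2-sg2 it was 38 of 58 (1.32) and 7 of 7 (4.37). In the tlr4 samples such pairs were few: 1 of 1 exceeded it in tlr4ba-sg2 fish 4 and 1 of 2 in tlr4bb-sg1 fish 3. In fish 4 of tlr4bb-sg1 and of tlr4bb-sg2 it was 2 of 5 each, with median ratios of 0.994 and 0.749. The excess summed over all pairs was thus not shared by every pair. These counts set each pair against a ratio of 1. Under independence it would be 1.18 and 1.19 in fish 1 and 2 of acaa2-sg1, and 1.14 in fish 1 and 2 of acaa2-sg2. The medians of 1.34, 1.36 and 1.32 lay not far above these values.

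At tlr4bb-sg1, SNV:1G,-8T had 287 reads in fish 3 against 1.01 expected and 99 in fish 4 against 0.915. Of the reads with T at -8, 52.0% in fish 3 and 20.6% in fish 4 also had G at 1. These positions lie 8 bases apart, and in fish 3 the pair had more reads than SNV:-8T alone, 287 against 235. SNV:4G,-2G had 18 reads in fish 3 and 6 in fish 4, with 0.00054 and 0.0014 expected. The allele SNV:3G,2A,-2G,-4G,-7G, with 5 substitutions, was found in both fish, in 15 and 11 reads.

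At tlr4bb-sg2, SNV:2A,1G, 2 neighbouring changes, had 20, 12, 4 and 3 reads in fish 1 to 4 against 0.467, 0.317, 0.038 and 0.091 expected. SNV:2A,-1A had 0, 1, 18 and 14 reads against 0.056, 0.034, 0.101 and 0.241. The 3 T-to-G changes of SNV:4G,1G,-2G were read together in 38 reads of fish 3 and 25 of fish 4, and in 0 of fish 1 and 2, which allows up to 0.010% and 0.015%. In fish 3 and 4 it took 0.013% and 0.0099% of the reads without an indel, within the limit of fish 2.

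At the tlr4ba sites the pairs were rarer. At tlr4ba-sg1, SNV:-3A,-1A had 17 reads in fish 3 and 5 in fish 4 against 0.019 and 0.0075 expected, and SNV:-4C,6C had 12 and 5 against 0.019 and 0.0030. At tlr4ba-sg2, SNV:-6C,-3C had 23 reads in fish 3 and 36 in fish 4 against 0.027 and 0.022 expected, and SNV:-1T,6A had 11 and 21 against 0.037 and 0.051. Both had 0 reads in fish 1 and 2, which allows up to 0.014% and 0.011%, more than the share of either pair in fish 3 and 4. SNV:1G,5T, led by its 7 reads in fish 1, had 7, 0, 4 and 6 reads in fish 1 to 4, and SNV:-1T,6T had 2, 1, 7 and 4.

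The bases read in multiple alleles also differed from those of single alleles. Transitions made up 2.83% to 35.8% of the substitutions in multiple alleles, under the 33.3% of the possible changes in 19 of 20 samples. In acaa2-sg1 their percent in multiple alleles was 29.0%, 35.8%, 22.0% and 22.7% in fish 1 to 4. In single alleles it was 2.56%, 3.88%, 35.7% and 35.1%, so the direction differed between fish. In tlr4ba-sg1, a read G made up 30.2% and 26.6% of the substitutions in multiple alleles of fish 3 and 4, against 16.5% and 14.1% of the single-substitution reads. In tlr4ba-sg2 it made up 30.2%, 24.4%, 30.0% and 29.0% in multiple alleles of fish 1 to 4, against 26.2%, 12.1%, 20.3% and 14.7% in single alleles. The values for multiple alleles of fish 1 and 2 there rest on 20 and 19 reads, against 789 and 1015 in fish 3 and 4. Of the possible single substitutions, 23.8% read G at tlr4ba-sg1 and 26.2% at tlr4ba-sg2. In acaa2-sg1 the share of a read G was lower in multiple alleles, at 43.9%, 47.5%, 52.7% and 52.9%, against 96.2%, 93.8%, 66.2% and 63.7% in single alleles. There SNV:3G alone held 28904 of the 30409 single-substitution reads of fish 1 and 2859 of the 3094 of fish 2. Of the possible single substitutions at acaa2-sg1, 16.7% read G. G was the more frequent in multiple alleles in 9 of 20 samples, so no direction was common to all guides. These differences were not tested.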

How the data were processed

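Amplicons of genomic DNA from sorted zebrafish melanoma cells were read in 20 samples, from products of 200 to 280 bp amplified from 50 to 100 ng of DNA, per the labels' protocols. The authors deposited read counts for each allele, with a table for every guide and a column for every fish, per the file headers. The submitters' processing notes name genome build GRCz10 and R 4.0.5, and the aligner, variant caller and filters are not given in the sources used here. Columns were tied to samples by guide and fish number, and 0 columns belonged to no listed sample.

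Reads named Other and indel alleles were left out, so the denominator of each share was substitution-only plus no variant reads. Depth limits precision as given by 95% Wilson (shares) and exact Poisson (double reads) intervals, and a count of 0 allows 3 reads. Reads carried no molecular identifiers and can be PCR copies, so intervals and limits cover counting error only. The sample or fish was the unit, and differences of means were tested by exact two-sided permutation at 0.05, with Benjamini-Hochberg adjustment over 12 comparisons. For differences of means, p is the share of reassignments of these samples or fish to the groups that gave a difference at least as large. Comparisons of guides did not pair samples by fish number, which the alternative with fish number as a replicate block did. Expected double reads were the reads without an indel times the summed products of single-allele shares, with 0.5 reads added to observed and expected counts before log2. Alleles named were, per guide, the 5 single and 2 multiple alleles of highest mean share, each sample's most abundant allele and any at 1% or more, and the 2 pairs with most double reads. A check on simulated independent substitutions was run for the alternative form of the joint statistic that divides by no variant reads. It covered only samples above a minimum of expected reads, and its values are not reported here. Members, rules and alternatives were chosen with earlier results of these data known. Whether fish numbers pair the samples of a knockout was not stated in the labels. Means over the guides of a fish take samples of the same number as the same fish. Python 3.11.15, numpy 2.4.6, scipy 1.17.1 and pandas 2.3.3 were used.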

Additional observations from a re-analysis of the deposited data

Results flagged for a closer look

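In 46 sets of 4 values, 1 value stood apart from the others of its set (by Dixon's test at 95%) in 4 cases. Chance alone gives about 1 in 20 sets when sets are not picked by their values. The alleles among these sets were named for a high mean share, which 1 high fish can produce. That rate therefore need not hold for them. The percent of substitution reads with several substitutions at tlr4bb-sg2 was 15.0% in fish 3, against 9.27% to 9.39% in the other 3 fish. The other 3 cases are all high values of tlr4ba-sg2 fish 1, the sample with 69.2% indel reads: 0.342% for SNV:1G, 0.199% for SNV:-1T and 0.032% for SNV:1G,5T, which rest on 74, 43 and 7 reads. Their cause was not tested.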

How the results depend on the processing

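Of the 78 alternatives that left out no single fish, 62 kept the direction and the side of the threshold. For substitution share, tlr4ba-sg1 minus tlr4ba-sg2 turned positive without each guide's most abundant allele (0.190 points), within fish 3 and 4 (0.115), and with fish number as a replicate block (0.115, exact p = 0.5), and tlr4ba-sg2 minus tlr4bb-sg2 turned positive over all classified reads (0.178) and within fish 1 and 2 (0.0899). The difference of acaa2 and tlr4 fish was 12.3 points within fish 1 and 2 and 4.95 within fish 3 and 4 (exact p = 0.333, the smallest possible). For the multiple-substitution percent, acaa2-sg1 minus acaa2-sg2 was 6.46 points without the most abundant allele, 0.280 without alleles of 1 read and 14.3 within fish 3 and 4. For tlr4ba-sg2 minus tlr4bb-sg2 it was 1.94 within fish 3 and 4, and tlr4ba-sg1 minus tlr4bb-sg1 was -1.74 without the most abundant allele and -1.61 without alleles of 1 read. That of acaa2 and tlr4 fish was 12.5 without the most abundant allele (exact permutation p = 0.0286). Joint occurrence was 2.56 (log2) within fish 1 and 2 and 3.85 within fish 3 and 4 (exact p = 0.125, the smallest that 4 fish allow). It was 2.42 to 3.59 under the other 6 alternatives, which include leaving out each guide's most abundant pair (2.67, chosen after seeing the data), all with an exact p of 0.0078. Causes were not tested.

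Leaving out 1 sample or fish at a time gave these ranges of the substitution-share differences: 4.29 to 7.86 for acaa2-sg1 minus acaa2-sg2, -0.219 to 0.0621 for tlr4ba-sg1 minus tlr4ba-sg2 (positive without tlr4ba-sg2 fish 1), 0.0276 to 0.659 for tlr4bb-sg1 minus tlr4bb-sg2, -0.327 to -0.0617 for tlr4ba-sg2 minus tlr4bb-sg2, -0.924 to -0.293 for tlr4ba-sg1 minus tlr4bb-sg1, and 7.29 to 9.92 for acaa2 minus tlr4 fish, where the exact p was 0.0571 without any 1 tlr4 fish. For the multiple-substitution percent the ranges were, in the same order, -5.65 to 3.39 (positive without acaa2-sg1 fish 1, 3.39, or fish 2, 2.89), 3.21 to 6.65, -0.817 to 6.63 (negative without tlr4bb-sg1 fish 3), -3.12 to 0.315 (positive without tlr4ba-sg2 fish 1, 0.315, or fish 2, 0.150, or tlr4bb-sg2 fish 3, 0.102), -3.10 to 4.34 (negative without tlr4ba-sg1 fish 3, -0.753, or tlr4bb-sg1 fish 4, -3.10) and 3.39 to 7.42. Joint occurrence was 3.004 to 3.41.

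With fish number as a replicate block the smallest possible p was 0.125 with 4 fish and 0.5 with 2, above the threshold whatever the data. Same-numbered samples deviated to the same side of their guide means in 19 of 28 cases. These cases are not independent, since guides recur among the comparisons. At a guide read in 2 fish the deviations are also equal and opposite by construction. The count was not tested. Samples with 330 to 469 substitution reads limit what can be said of rare alleles in fish 1 and 2 of tlr4ba-sg2 and tlr4bb-sg2.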

Other observations

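Of the 4449 alleles with 2 or more substitutions, 3302 were read in 1 fish. Of these, 2840 had 1 read in the whole series, so they could be seen in 1 fish only. Among all 4701 alleles the number read in 1 fish was also 3302. Some alleles with 3 or more substitutions were read in both fish 3 and fish 4. The ones given here were chosen after their values were seen. At acaa2-sg1, SNV:-7A,-3G,3G was the most abundant of them in both, with 67 reads in each. At tlr4bb-sg2 it was SNV:4G,1G,-2G, with 38 and 25 reads, at acaa2-sg2 SNV:-7C,2C,3C, with 2 and 14 reads, and at tlr4bb-sg1 SNV:3G,2A,-2G,-4G,-7G, with 15 and 11 reads. At tlr4ba-sg1 the leading alleles differed, SNV:-8G,-7G,2G with 14 reads in fish 3 and SNV:-8G,-7G,-5G,2G,3G with 5 reads in fish 4, and every substitution in both read G. They differed at tlr4ba-sg2 too, SNV:-8G,-7G,1G,2G,3G,4G with 15 reads in fish 3 and SNV:-3T,-1T,6A with 17 reads in fish 4. Alleles in which all 3 or more substitutions read G made up 26.3% and 20.3% of such reads in fish 3 and 4 of tlr4ba-sg1. The percent was 17.0% and 12.3% at tlr4ba-sg2, 17.5% and 17.2% at tlr4bb-sg2, 11.3% and 12.1% at acaa2-sg1, and 8.33% and 8.0% at tlr4bb-sg1 in the same fish. At acaa2-sg2 it was 0% of 37 reads in fish 3 and 1.47% of 273 reads in fish 4.

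Among alleles with several substitutions, 20 of 1653 at acaa2-sg1 and 14 of 806 at acaa2-sg2 were read in all 4 fish, against 2 of 755 at tlr4ba-sg2 and 2 of 496 at tlr4bb-sg2. These counts are capped by the sample with the fewest such alleles. That sample held 61 at acaa2-sg1 and 93 at acaa2-sg2, but 13 at tlr4ba-sg2 and 17 at tlr4bb-sg2. The counts therefore do not compare the sites. At the guides read in 2 fish, 60 of 340 at tlr4ba-sg1 and 80 of 399 at tlr4bb-sg1 were read in both. Of these 340 and 399 alleles, 243 and 290 had 1 read in all and so could not be read in both. Over all substitution-only alleles, single ones included, 102 of 382 and 122 of 441 were read in both fish. These counts therefore do not show that the alleles belong to 1 fish.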
